A study of Mus musculus with 17 samples.

Results

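The skeletal muscle genes read in the cochlear libraries were 34 genes chosen by symbol, each of which occurred once among the 35285 genes of the expression table. They were read in 17 libraries, each made from the cochlear RNA of 1 male C57BL/6J mouse, a strain that loses hearing early with age. The mice entered the study at 8 weeks of age and were sampled 2 days after exposure. The 3 control mice had saline injections and no noise. The 7 mice of the NE (noise exposure) group had 2 h of noise between 8 and 16 kHz at 100 dB SPL, and no injection is named for them. The 7 mice of the brimonidine group had the same noise and 3 intraperitoneal injections of 1 mg/kg brimonidine, a drug that activates α2-adrenergic receptors. The labels give the genotype of all mice as WT and name no transgene, and the strain itself carries a mutation of Cdh23, a cadherin of the hair bundle. The labels name the source as cochlear cells and the cell type as interstitial cells, and the protocols used here do not describe how muscle around the ear was removed.

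Skeletal muscle contracts when myosin of the thick filament pulls on actin of the thin filament. Calcium released from the sarcoplasmic reticulum frees the thin filament through the troponin complex, and the pump SERCA1 and the buffer parvalbumin take the calcium away again. Fast and slow fibres use different genes for the same parts of this machine. The cochlea itself has no striated muscle, but the small muscles of the middle ear, the tensor tympani and the stapedius, lie beside it.

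Promoters of 3 members are shown, from 1 gene each of the thin filament, metabolism and the thick filament, because these genes moved together from library to library and hold at least 1 of the motifs searched. The sequences are the 250 bases before the RefSeq start in GRCm38.p6, written 5′ to 3′ on the gene strand, with 3 kinds of motif in capitals. The motifs were the E-box form CAGCTG, the binding sequence of myogenic bHLH factors, the MEF2 site, and the CArG box of serum response factor. The search patterns of all 3, though not every match of the CArG box and the MEF2 site, read the same on both strands, and no match in the members overlapped another. Acta1 (skeletal α-actin) lies on the minus strand at chr8:123894776-123895025, Ckm (muscle creatine kinase) on the plus strand at chr7:19410844-19411093, and Myh4 (the fastest myosin heavy chain) on the plus strand at chr11:67237562-67237811.
Acta1: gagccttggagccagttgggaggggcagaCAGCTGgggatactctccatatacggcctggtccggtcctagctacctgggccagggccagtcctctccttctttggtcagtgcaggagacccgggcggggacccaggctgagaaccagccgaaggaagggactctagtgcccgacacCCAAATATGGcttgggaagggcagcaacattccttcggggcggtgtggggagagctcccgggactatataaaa
Ckm: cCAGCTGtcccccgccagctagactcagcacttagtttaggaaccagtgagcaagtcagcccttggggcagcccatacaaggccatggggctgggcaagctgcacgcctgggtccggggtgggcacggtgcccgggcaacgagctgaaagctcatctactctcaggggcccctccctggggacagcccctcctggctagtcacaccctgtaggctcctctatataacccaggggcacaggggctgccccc
Myh4: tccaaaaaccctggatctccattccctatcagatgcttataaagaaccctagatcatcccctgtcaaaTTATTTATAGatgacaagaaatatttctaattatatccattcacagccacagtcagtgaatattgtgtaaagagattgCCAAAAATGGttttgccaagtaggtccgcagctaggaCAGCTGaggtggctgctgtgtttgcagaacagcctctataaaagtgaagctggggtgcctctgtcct
Counted from the start, the E-box began at base -221 of Acta1, -249 of Ckm and -67 of Myh4. The CArG box began at -73 of Acta1 and -104 of Myh4, and the MEF2 site at -182 of Myh4. Of the 34 members, 28 had a promoter in the table, with 35 starts in all, and 18 of the 28 held at least 1 of the motifs. The E-box letters were present before 15 of these 35 starts, against 13% of the 32851 starts of all genes. The CArG box was present before 5 of 35, against 1.47% of all starts, and the MEF2 site before 4 of 35, against 2.92%. A match describes the letters and does not show that a factor binds there. Myh2, Myh1 and Myh4 are neighbours on chromosome 11, where the gene models of mm10 run from 67171027 to 67197517, from 67200052 to 67224575 and from 67238029 to 67260446.

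Levels are FPKM, fragments counted on a gene divided by its exon length and by the total of the library, so they are per length and can be compared between genes. The totals, recovered from the values, were 14457733 to 18288854 fragments, with the 3 controls among the shallower libraries (14457733, 15181390 and 16080796). Fragments recovered over all genes summed to more, 1.52e+07 in control 1 and 1.93e+07 in NE 4 (totals 14457733 and 18288854). The cause of this difference was not traced. Fragments on the 34 members came to 0.0981% to 0.409% of the totals. Inner ear genes were present in every library, with Coch, a protein of the inner ear matrix, between 444 and 1040 FPKM and the hair cell gene Otof between 1.96 and 6.06 FPKM. Control 2 stood apart from controls 1 and 3. It was the highest control for 32 of the 34 members, and the median over the 33 members other than Tnnc2 was 2.4 times the mean of the other controls. It also had the highest Coch and Otof of the 17 libraries.

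Genes of mature skeletal muscle were present, of both fast and slow fibres. Of the 34 members, 27 were at 1 FPKM or more in all 17 libraries. The developmental heavy chain Myh3 stayed at or under 0.196 FPKM and the acetylcholine receptor subunit of fetal muscle, Chrng, at or under 0.0395 FPKM. Of 7 genes of satellite cells and myogenic regulators, 6 were under 1 FPKM in every library of each group, among them Pax7 (at or under 0.0584 FPKM) and Myf5 (at or under 0.0597 FPKM). The remaining gene, Cdh15, is a muscle cadherin that cerebellar granule cells also use. Of 12 heart muscle genes, 7 in the controls, 8 in NE and 9 in brimonidine libraries were under 1 FPKM in every library of the group, with Nppa at or under 0.193 FPKM, Myl7 at or under 0.112 FPKM and Gata4 at 0 in 16 of 17 libraries. Others of the list were present at low levels. Means in control, NE and brimonidine libraries were 1.66, 1.77 and 1.5 FPKM for the heart troponin Tnni3, 2.43, 0.847 and 0.818 FPKM for Mybpc3 and 1.34, 0.928 and 0.583 FPKM for the atrial light chain Myl4, and Actc1, the actin of the heart, reached 7.12 FPKM in control 2. The list summed to 7.07 to 17.4 FPKM in the controls, 4.38 to 9.35 in NE and 3.87 to 5.69 in brimonidine libraries, and its part in the level of the members was not tested. Smooth muscle genes were present in all groups, with Acta2 between 11 and 21.2 FPKM.

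The summed level of the 34 members differed 3.47-fold between libraries. In the controls the sum was 463, 1194 and 517 FPKM for controls 1, 2 and 3. In the NE group it was 945, 1106, 959, 1607, 1086, 713 and 992 FPKM for NE 1 to NE 7. In the brimonidine group it was 1309, 567, 734, 957, 1471, 783 and 959 FPKM for brimonidine 1 to brimonidine 7. Controls 1 and 3 were the lowest libraries and NE 4 and brimonidine 5 the highest, while control 2 lay above 5 of the 7 libraries in the brimonidine group. Within groups the sum spread 2.25-fold in NE, 2.59-fold in brimonidine and 2.58-fold in the controls. More muscle cells and more muscle RNA per cell cannot be told apart in RNA from a whole tissue.

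**Figure D1:**
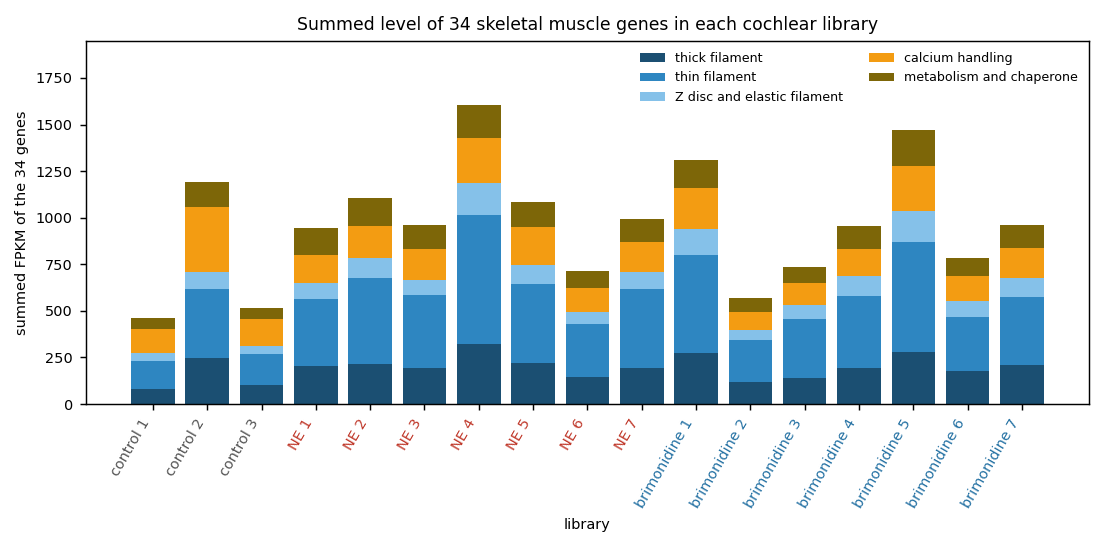
Each bar is 1 library, its height is the summed FPKM of the 34 skeletal muscle genes, and the colours divide it by the role of the genes. Controls 1 and 3 are the lowest at 463 and 517 FPKM, control 2 reaches 1194, and the highest are NE 4 at 1607 and brimonidine 5 at 1471.

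Genes of the thin filament gave the largest share. Acta1, the actin of the thin filament, was at 68.7, 190 and 83.1 FPKM in controls 1, 2 and 3, from 142 (NE 6) through a median of 228 to 397 (NE 4) in the NE group, and from 121 (brimonidine 2) through 201 to 318 (brimonidine 5) in the brimonidine group. Control 2 lay within the range of both exposed groups and controls 1 and 3 below all 14 exposed libraries. Tnnt3, the fast troponin T that anchors troponin to tropomyosin, was at 49.3, 118 and 50.8 FPKM in the controls, 90.5 to 189 (median 114) in NE and 67.8 to 173 (median 105) in brimonidine libraries. Tnni2, the fast inhibitory troponin, was at 22.9, 50.8 and 24.6 FPKM in the controls, 41 to 81.3 (median 50) in NE and 28.4 to 81.2 (median 44.3) in brimonidine libraries. Both fast troponins followed the pattern of Acta1, with control 2 inside the exposed ranges. Nebulin (Neb), the ruler of the thin filament, ranged from 1.3 to 6.17 FPKM over the 17 libraries.

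Tnnc2, the fast calcium-binding troponin and the partner of Tnnt3 and Tnni2, was almost without fragments. It had 9 fragments over the 17 libraries, was listed at 0 in 11 of them and reached 3 fragments (0.247 FPKM) in control 2. In the GENCODE M21 models, 74% of its exon length lies under exons of Ube2c on the opposite strand, and Ube2c had 26.2 to 77.2 FPKM. The part of this overlap in the count of Tnnc2 was not tested. The libraries were strand-specific, but the strand setting of the counting is not given in the sources used here. How reads on such overlaps were counted, or whether they were, is therefore not known. The same holds for 31.9% of the exon length of Mb, 21.9% of Atp2a1, 20% of Cacna1s, 15.5% of Ckm and 13.3% of Myh7.

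Among the 4 heavy chains of the thick filament, the fast chains Myh4 and Myh1 had the highest levels in every library, each below the fast light chain Mylpf. Myh4 (type IIb fibres) was at 9.08, 45.5 and 9.55 FPKM in the controls, 19.2 to 68.9 (median 29.7) in NE and 8.5 to 43.8 (median 29.5) in brimonidine libraries. Myh1 (type IIx) was at 6.84, 24 and 8.97 FPKM in the controls, 20.8 to 37.5 (median 25) in NE and 14.7 to 43.7 (median 28.6) in brimonidine libraries. Myh2 (type IIa) was at 2.1, 4.84 and 2.66 FPKM in the controls, 4.18 to 14.1 (median 9.27) in NE and 5 to 18.8 (median 7.86) in brimonidine libraries. Of these 3 fast heavy chains, Myh2 was the one for which control 2 (4.84 FPKM) lay below every brimonidine library and below all NE libraries but NE 6. Of the summed level of the 4 heavy chains, Myh4 made 30% to 60.9%, Myh1 30.2% to 52.1%, Myh2 6.48% to 19.1% and Myh7 0.184% to 2.88%. The lowest share of Myh2 and the highest of Myh4 were both in control 2. Between 9.68% and 15.8% of the distinct stretches of 75 bases in the transcripts of the 3 fast heavy chains also occur in another gene, mostly another heavy chain. How counting split such reads was not tested. The order of Myh1 and Myh4 is therefore uncertain where their levels were close, as in NE 6 (20.8 and 19.2 FPKM).

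The other thick filament genes were Mylpf and Myl1, the light chains of fast fibres, and the myosin-binding proteins Mybpc1 and Mybpc2. Mylpf was at 35, 85 and 49.8 FPKM in the controls, 55.5 to 106 (mean 76.9 ± 16.3, SD, n = 7) in NE and 53.8 to 103 (mean 72.8 ± 20.9, n = 7) in brimonidine libraries. Myl1 was highest of all 17 libraries in control 2, at 57.3 FPKM, against 17.6 to 46.2 FPKM in the rest. Mybpc1 ranged from 8.89 to 24.3 FPKM and Mybpc2 from 1.78 to 11.4 FPKM, both lowest in control 1.

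Ttn, Des and Atp2a1, of the elastic filament, the Z disc and the calcium cycle, followed the pattern of Acta1, which Pvalb, the buffer of the same cycle, did not. Titin (Ttn), the elastic spring of the sarcomere, was at 0.558, 1.94 and 0.657 FPKM in the controls, 0.713 to 2.86 (median 2.02) in NE and 0.721 to 3.46 (median 2.16) in brimonidine libraries. Desmin (Des), the intermediate filament that ties the Z discs together, was at 7.31, 16.4 and 8.08 FPKM in the controls, 11.7 to 25.7 (median 16.6) in NE and 11.3 to 29.2 (median 19.8) in brimonidine libraries. Atp2a1, which encodes SERCA1, was at 19.7, 71.5 and 25.3 FPKM in the controls, 35.8 to 116 (median 69) in NE and 37.9 to 121 (median 67) in brimonidine libraries. For these 3 genes controls 1 and 3 were the lowest of the 17 libraries. Tcap, the cap of titin at the Z disc, ranged from 18.7 to 72.8 FPKM, and the actinins Actn3 and Actn2, which cross-link actin there, from 4.4 to 31.2 and from 1.77 to 11.3 FPKM. Myoz1 and Ldb3, both bound to the Z disc, reached 22.8 and 7.92 FPKM. The calcium store protein Casq1, the release channel Ryr1 and its voltage sensor Cacna1s reached 16.2, 3.63 and 2.46 FPKM.

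Among genes of metabolism, Ckm was at 8.33, 25.1 and 10.7 FPKM in the controls, 19.3 to 48.3 (median 28.4) in NE and 13.6 to 41.5 (median 24.1) in brimonidine libraries. Myoglobin (Mb) ranged from 27.4 to 85.5 FPKM and the muscle enolase Eno3 from 18.8 to 52.2 FPKM. Hspb7, a small heat shock protein of striated muscle, was at 2.15, 4.14 and 2.25 FPKM in the controls, 3.71 to 10.3 (median 7.38) in NE and 5.83 to 11.6 (median 8.41) in brimonidine libraries. All brimonidine libraries lay above the 3 controls for Hspb7, and NE 1 and NE 6 were the NE libraries below control 2.

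**Figure D2:**
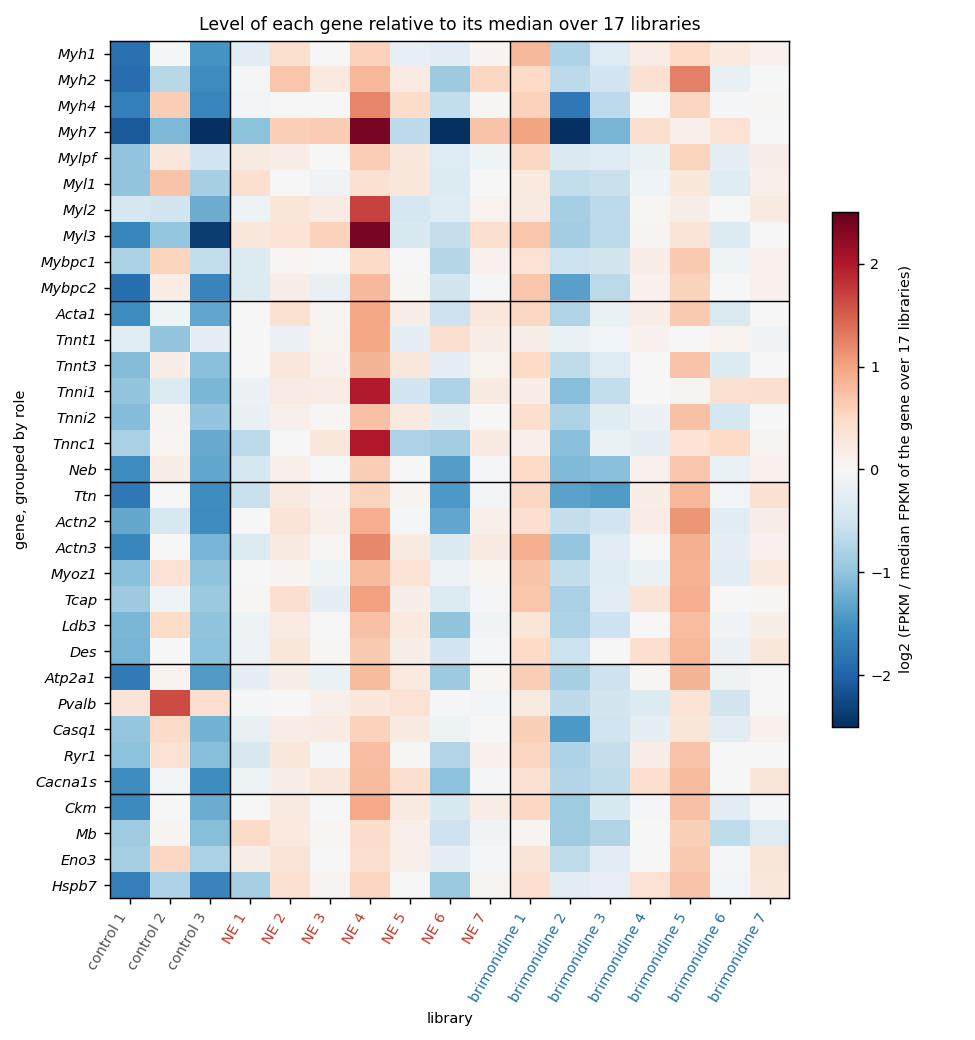
Each cell is the level of 1 gene (rows, grouped by role) in 1 library (columns) as log2 of the FPKM over the median of that gene in the 17 libraries, with Tnnc2 left out for its zeros. Columns of 1 colour run through most rows, controls 1 and 3 blue and NE 4 and brimonidine 5 red, while Pvalb is highest in control 2 and the slow fibre genes Myh7, Myl2, Myl3, Tnni1 and Tnnc1 are darkest in NE 4.

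The members went up and down together from library to library. The likeness of a member to the rest was taken as the Pearson correlation over 17 libraries of its log2(FPKM + 1) with the mean of the other 33, which share depth and scaling within a library. It was at least 0.8 for 28 members and reached 0.98 for Ckm. It was under 0.5 for 3, which were Tnnt1 (0.37), Pvalb (0.17) and Tnnc2 (-0.013). For 31 of the 33 members without a zero, the level relative to the summed level of the other members varied less over the libraries than the level itself. NE 4 was the highest library for 16 members and brimonidine 5 for 13. Control 1 was the lowest for 19 and control 3 for 9. The ratio of Ckm to Acta1 was between 10.6 and 13.6 FPKM of Ckm per 100 FPKM of Acta1 in all 17 libraries, although Acta1 itself ranged from 68.7 to 397 FPKM.

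Of 14976 genes outside the list with a mean of at least 1 FPKM, the 10 with the highest correlation with the mean of the members over the 17 libraries had values from 0.953 to 0.982. They were Srl, Myom2, Jph2, Hfe2, Nrap, Cmya5, Tpm2, Fsd2, Mylk2 and Hspb6. Srl (sarcalumenin) binds calcium in the sarcoplasmic reticulum, Jph2 joins it to the surface membrane, Myom2 belongs to the M band, Nrap to the end of the myofibril, and Mylk2 is the light chain kinase of skeletal muscle. In all, 33 of these genes reached 0.9.

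The 6 members taken as slow fibre genes, Myh7, Tnnt1, Tnni1, Tnnc1, Myl2 and Myl3, stayed at or under 12 FPKM in all libraries and were at their highest in NE 4. Mybpc1, the slow type of myosin-binding protein C, was not among these 6 and was highest in brimonidine 5 (24.3 FPKM). Myh7, the slow heavy chain, was at 0.161, 0.315 and 0.109 FPKM in the controls, 0.0812 to 3.57 (median 1.03) in NE and 0.0714 to 1.36 (median 0.753) in brimonidine libraries. Tnnc1, the slow calcium-binding troponin, was at 1.4, 2.53 and 1.02 FPKM in the controls, 1.34 to 9.77 (median 2.44) in NE and 1.18 to 3.47 (median 2.54) in brimonidine libraries. Tnni1, the slow inhibitory troponin, was at 0.211, 0.329 and 0.19 FPKM in the controls, 0.247 to 1.66 (median 0.476) in NE and 0.201 to 0.551 (median 0.437) in brimonidine libraries. In each case the highest value was in NE 4. NE 4 had 4.92 times the median of the other 6 NE libraries for Tnnc1, 4.86 times for Myh7, 4.18 times for Myl3, 3.87 times for Tnni1 and 3.3 times for Myl2, against 2.34 times for Myh4, 1.89 times for the slow troponin Tnnt1, 1.8 times for Acta1 and 1.79 times for Ckm. Myl2 and Myl3, the light chains shared with the ventricle of the heart, were at 6.65 and 4.87 FPKM in NE 4. The 12 heart muscle genes read above summed to 4.38 FPKM in that library, and a heart source of the light chains was not tested. Myl2 was at 1.49, 1.45 and 0.861 FPKM in the controls, 1.52 to 6.65 (median 2.15) in NE and 1.14 to 2.38 (median 2.07) in brimonidine libraries. Myl3 was at 0.305, 0.483 and 0.183 FPKM in the controls, 0.62 to 4.87 (median 1.19) in NE and 0.518 to 1.52 (median 0.942) in brimonidine libraries.

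**Figure D3:**
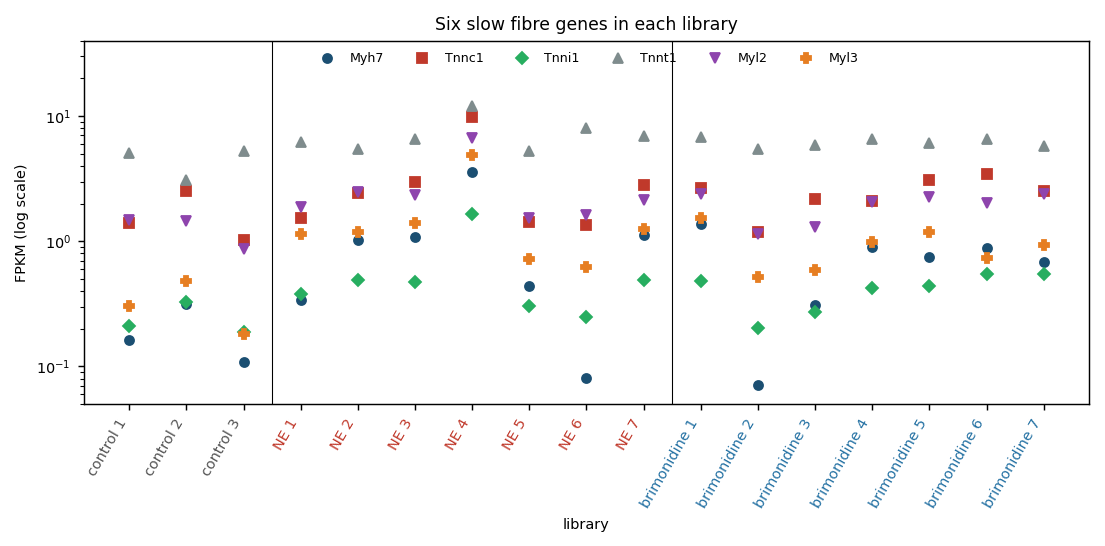
Points are the FPKM, on a log axis, of 6 slow fibre genes in each of the 17 libraries, with vertical lines between the control, NE and brimonidine groups. In NE 4 all 6 are at their highest (Tnnt1 12, Tnnc1 9.77, Myl2 6.65, Myl3 4.87, Myh7 3.57 and Tnni1 1.66 FPKM), and Tnnt1 changes least from library to library.

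Tnnt1, the slow troponin T, did not follow the other members. It was at 5.12, 3.08 and 5.22 FPKM in the controls, 5.25 to 12 (median 6.51) in NE and 5.43 to 6.78 (median 6.12) in brimonidine libraries. It was the member with a lower level in control 2 than in controls 1 and 3, and both exposed groups lay above the 3 controls without overlap. In brimonidine libraries its SD was 0.497 FPKM around a mean of 6.15, while Acta1 ranged 2.63-fold there. With 211 to 269 fragments, its counting error of 6.49% was near this SD, which was 8.09% of the mean.

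Pvalb, the parvalbumin gene, went against the rest between the controls and the exposed libraries. It was at 103, 257 and 111 FPKM in the controls, 78.6 to 107 (median 82.5) in NE and 52.3 to 105 (median 65.5) in brimonidine libraries. NE 5 (107 FPKM) and brimonidine 5 (105 FPKM) were the exposed libraries above control 1. Within groups Pvalb moved with the other members in part. Control 2 had 2.4 times the mean of controls 1 and 3, which was also the median over the members. In the brimonidine group Pvalb and the sum of the other members were both highest in brimonidine 5 and lowest in brimonidine 2. In NE, Pvalb was highest in NE 5 and lowest in NE 7, the other members in NE 4 and NE 6. In each control Pvalb made 21.5% to 22.3% of the summed level of the 34 members, and in the exposed libraries 6.19% to 11.1%. Set against Acta1, it was 134 to 150 FPKM per 100 FPKM of Acta1 in the controls and 25.1 to 56 in the 14 exposed libraries, a ratio that was looked at after the values were seen and is given without a test. Parvalbumin is also abundant in cerebellar interneurons and Purkinje cells, and cerebellar genes moved with the same libraries. The summed level of 18 cerebellar and hindbrain genes was 429 to 1100 FPKM in the controls, 36.9 to 53.2 in NE and 39.6 to 151 in brimonidine libraries, and all 17 that were tested were called lower in NE than in control mice, beside 5.49% of all genes. Of these 17, Neurod1, Pcp2, Ppp1r17, Lhx1 and Cnpy1 were under 1 FPKM in every NE library and passed the filter through the controls alone. Gabra6, a receptor subunit of cerebellar granule cells, was at 31.5, 93.4 and 36.9 FPKM in the controls, at or under 2.08 FPKM in NE, at 8.81 in brimonidine 5 and at or under 0.358 in the other brimonidine libraries. Parvalbumin also occurs in hair cells, where the related gene Ocm was at 4.5 to 13.1 FPKM in the controls and 3.51 to 7.9 in the exposed libraries. The part of each source in the level of Pvalb was not tested.

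**Figure D4:**
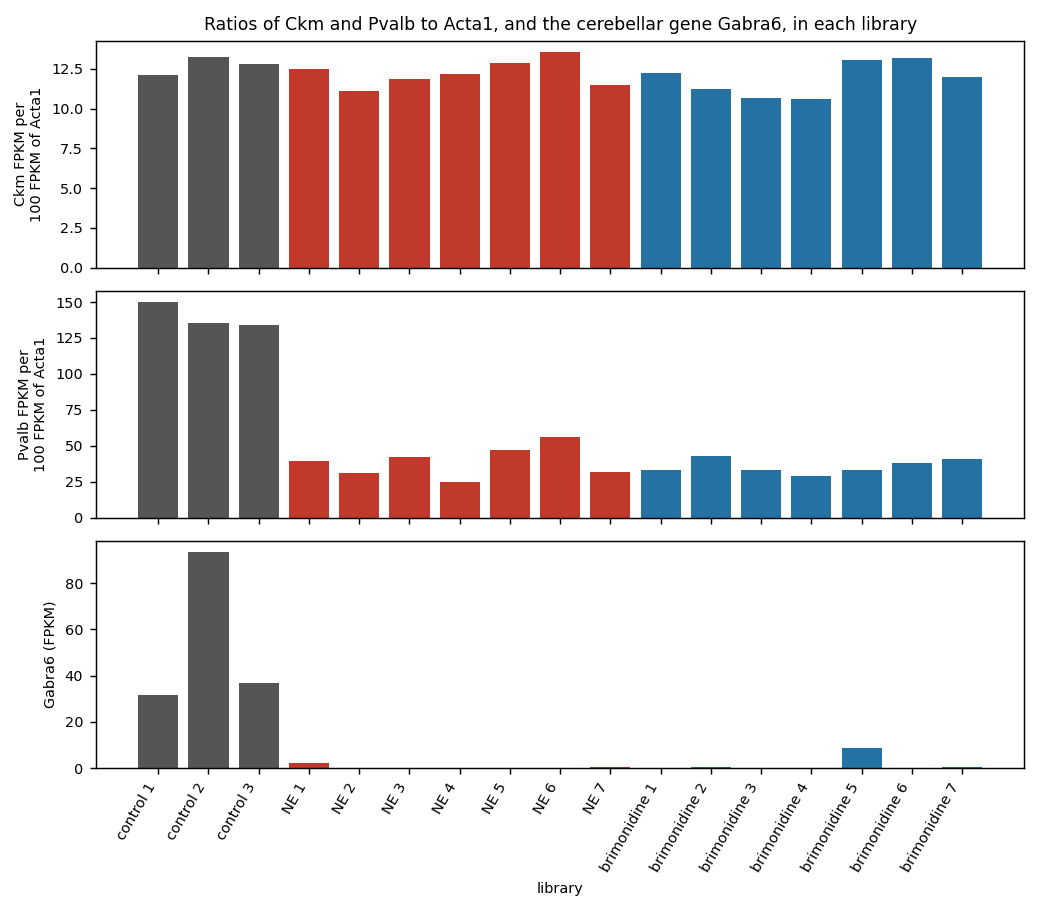
Bars show, for each library, Ckm (top) and Pvalb (middle) as FPKM per 100 FPKM of Acta1 and the FPKM of the cerebellar gene Gabra6 (bottom), with controls in grey, NE in red and brimonidine in blue. The Ckm ratio stays between 10.6 and 13.6, whereas the Pvalb ratio is 134 to 150 in the controls and 25.1 to 56 in the exposed libraries, and Gabra6 is above 31 FPKM in the controls and highest at 8.81 FPKM elsewhere.

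The comparison of NE with control mice asked what noise had changed in the cochlea 2 days later. Of the 34 members, 32 passed the filter on low values (Tnni1 and Tnnc2 did not). Of these, Myh7 and Myl3 were under 1 FPKM in every control and passed through NE libraries alone, which favoured the side of NE for them. Of the other 30, 29 were on that side. With limma on log2(FPKM + 1), 5 members passed both thresholds, an adjusted p under 0.05 and a change of at least 2-fold on that scale, and all 5 were higher in NE. Among all 15950 genes tested 0.27% were called higher and 5.49% lower. Myh2 rose from a mean of 3.2 ± 1.44 FPKM (SD, n = 3) to 9.76 ± 3.3 (n = 7), a log2 fold change of 1.34 ± 0.30 (SE, adjusted p = 0.0151). Acta1 rose from 114 ± 66 to 242 ± 78.6 FPKM (log2 fold change 1.17 ± 0.34, adjusted p = 0.0423), with an exact two-sided permutation p of 0.0167. Myh1 rose by 1.10 ± 0.32 (adjusted p = 0.0426), Ckm by 1.05 ± 0.31 (adjusted p = 0.0471) and Hspb7 by 1.03 ± 0.28 (adjusted p = 0.0356) on the log2 scale. The median over the 32 members, Myh7 and Myl3 included, was 0.69, beside -0.04 over all genes tested. Since the members follow each other from library to library, their counts are not independent.

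These calls changed with single libraries. For none of the 5 did the groups separate fully, since control 2 lay within the NE range, and controls 1 and 3 were together below all 14 exposed libraries for 23 of the 34 members, a pair of controls singled out after control 2 was seen to stand apart. Of the 16416 genes that reached 1 FPKM in 3 or more of the 17 libraries, 3.11% did the same. Without control 2, 15 members were called, all higher, and the median rose to 1.04. The calls over all genes fell from 918 (43 of them higher) to 368 (28 higher). Without control 3 no member was called, and without control 1, NE 2, NE 3, NE 4, NE 5 or NE 7 a single member was called, Myh2. Without NE 1, Myh2 and Hspb7 were called, and without NE 6 there were 5 calls, with Actn2 in place of Myh1. Over all genes, 85 were called higher without control 3, 144 without control 1, and 22 to 51 without 1 NE library. Tnnt1, Myl2 and Myl3 separated the groups fully without passing the test, with log2 fold changes of 0.57 ± 0.22, 0.60 ± 0.30 and 0.84 ± 0.33 and adjusted p of 0.104, 0.186 and 0.109, where Myl3 had passed the filter through NE alone. Of all genes tested, 3.24% separated in this direction. Pvalb stood at -0.71 ± 0.24 (adjusted p = 0.0773) and -0.29 without control 2, while the exact two-sided permutation p over all 10 libraries was 0.0167. By role, all 10 thick filament members (with Myh7 and Myl3, which the filter favoured on that side), 6 of 6 thin filament members, 7 of 7 of the Z disc and elastic filament, 4 of 5 of calcium handling and 4 of 4 of metabolism and chaperone were on the side of NE, with medians from 0.55 to 0.87.

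Brimonidine mice compared with control mice, the same controls as above, gave 2 calls among 30 members that passed the filter (Myh7, Tnni1, Tnnc2 and Myl3 did not). Of all 15947 genes tested, 0.169% were called higher and 5.56% lower. Hspb7 rose from 2.84 ± 1.12 to 8.16 ± 2.07 FPKM (log2 fold change 1.26 ± 0.21, adjusted p = 0.00307), and its exact two-sided permutation p of 0.00833 is the smallest that 7 libraries against 3 can give. Myh2 rose from 3.2 ± 1.44 to 9.37 ± 4.72 FPKM (log2 fold change 1.25 ± 0.34, adjusted p = 0.0329). For both, all 7 brimonidine libraries were above all 3 controls, as they were for Tnnt1 (0.41 ± 0.13, adjusted p = 0.0528) and Myl3, and 5.07% of all genes tested separated in this direction. Hspb7 was called in all 10 fits that omitted a library and Myh2 in 5 of them. Acta1 stood at 0.98 ± 0.35 (adjusted p = 0.0769) and Ckm at 0.83 ± 0.36 (adjusted p = 0.126) on the log2 scale. Of the 30, 29 were above 0, with a median of 0.56 beside -0.03 over all genes. Pvalb was the one below 0, at -0.98 ± 0.30 (adjusted p = 0.0496), under the fold threshold, and it stood at -0.56 without control 2. Without control 1 or brimonidine 5 it passed both thresholds. Without control 2 there were 7 calls, all higher, and without control 3 or brimonidine 1, 4 or 6 there was 1, Hspb7. Over all genes, 18 were called higher without control 2 and 75 without control 3. Without brimonidine 1, 4 and 6 these were 12, 17 and 17.

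**Figure D5:**
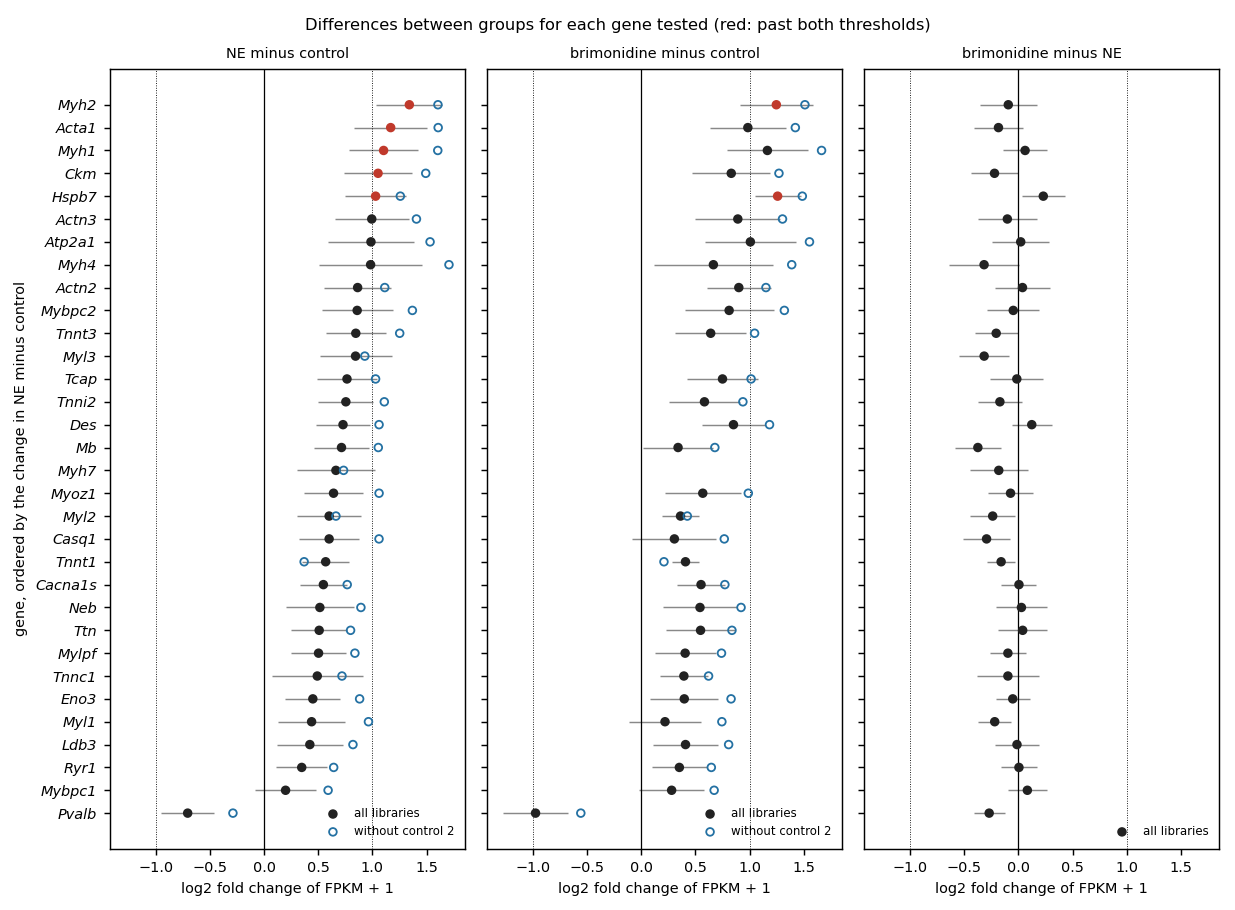
Points are log2 fold changes of FPKM + 1 for each member tested, with bars of 1 SE, for NE minus control, brimonidine minus control and brimonidine minus NE, red where both thresholds were passed, and open circles leave out control 2. Nearly all members lie to the right of 0 in the panels against control, by more without control 2, Pvalb lies to the left (-0.71 and -0.98), and the brimonidine minus NE values run from -0.37 to 0.23.

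Brimonidine and NE mice, the comparison that asked what the drug added to noise, gave no call among the members. Of 32 members tested, 10 were above 0, none passed an adjusted p of 0.05 in limma, and none had an unadjusted p under 0.05. Among all 15707 genes tested 0% passed both thresholds, 1 gene (0.00637%) passed the adjusted p alone, and 3.3% were higher and 2.46% lower at an unadjusted p under 0.05. The median of the members was -0.10, beside 0.01 over all genes, and the values ran from -0.37 ± 0.21 for Mb (adjusted p = 0.875) to 0.23 ± 0.20 for Hspb7 (adjusted p = 0.92). No member separated the groups, as 0.102% of all genes did upward and 0.0382% downward. A missed threshold does not show that the groups were alike, since the summed level ranged more than 2-fold within each. The sign of the median depended on single libraries, at 0.03 without NE 4 and 0.03 without brimonidine 2.

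A list of 70 further skeletal muscle genes was read in the same way. Its summed level was 355 to 583 FPKM in the controls, 455 to 666 in NE and 388 to 674 in brimonidine libraries, highest in control 2, NE 4 and brimonidine 5 of each group. In NE against control 56 were tested, 46 were above 0 and the median was 0.36, but none passed both thresholds. By adjusted p alone, Tpm2, the β-tropomyosin of the thin filament (0.92 ± 0.24, adjusted p = 0.031), and Ankrd2, a stretch-responsive protein of muscle (0.76 ± 0.22, adjusted p = 0.0461), were higher, and Kcnj11, a potassium channel that neurons also use, was lower (-0.88 ± 0.19, adjusted p = 0.0108). Over all genes tested, 2.12% were higher and 12% lower by adjusted p alone. In brimonidine against control, 55 were tested, and Ankrd2 (0.99 ± 0.23, adjusted p = 0.0163) and Kcnj11 (-0.91 ± 0.21, adjusted p = 0.0172) passed the adjusted p alone, beside 3.47% higher and 12.3% lower over all genes. In brimonidine against NE, 57 were tested and none passed.

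Genes of other tissues beside the cochlea gave the following in NE against control. None of the 9 bone genes tested was called, nor any of 7 tendon and connective tissue genes, 6 smooth muscle genes, 6 hair cell genes or 7 otic epithelium genes that were tested. The summed bone genes were 578 to 1449 FPKM in the controls and 731 to 1277 in NE, and the summed tendon genes 55.8 to 125 and 64.2 to 93, each highest in control 2. Of 10 spiral ganglion genes 4 were called lower, beside 5.49% of all genes. These were Snap25, Th, Calb2 and Rbfox3, while the neurofilament genes Nefl, Nefm and Nefh, Prph, Gata3 and Tubb3 were not called. Th had a mean of 0.151 FPKM in NE against 2.48 in the controls and so passed the filter chiefly through the controls. The uncalled genes included Tubb3 at -1.18 ± 0.36 (adjusted p = 0.0526), Nefl at -0.70 ± 0.33 and Nefh at -0.63 ± 0.39 on the log2 scale, and 1 of the 10 was above 0, with a median of -0.94. Of 5 heart genes tested, Ryr2 was called lower, and of the satellite cell list Cdh15, both genes with cerebellar expression. Ryr2 was at or under 0.167 FPKM in every NE library and passed the filter through the controls alone. The part of these tissues, and of what was dissected with the cochlea, in the level of the muscle genes was not tested.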

How the data were processed

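According to the labels and the study's methods, total RNA was extracted with TRIzol, strand-specific mRNA libraries were made with a TruSeq kit and sequenced on a NovaSeq instrument, and the submitters' processing notes name Trimmomatic, HISAT2, HTSeq and Cufflinks with the build mm10, without versions. The authors deposited 1 table of FPKM values (fragments divided by exon length and by library total) for 35285 genes, and no other columns of values were left unused. Multiplied by exon lengths of GENCODE M21, 92.4% to 93.2% of values under 1000 fragments were whole within 0.02 fragments, which gave the depth of each library. A test for counts was not applied, since FPKM values are not counts.

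The test on log2(FPKM + 1) took genes that reached 1 FPKM in 3 or more libraries of a comparison. It was run with limma 3.58.1 (eBayes with a trend) in R 4.3.3, on the libraries of those 2 groups alone, and p values were adjusted after Benjamini and Hochberg over all genes tested. A call needed an adjusted p under 0.05 and a log2 fold change of 1 or more in either direction, a scale that understates changes of low genes. For single members, exact two-sided permutation tests of the group means were made in scipy 1.17.1 under Python 3.11.15. Each library came from 1 mouse, and groups were taken from the labels.

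The 34 members and all other lists were chosen with earlier results of these data known. All members are accounted for, and values in each control, with the range and median (mean for Mylpf) of the groups of 7, are given for Acta1, Ckm, the heavy chains, the fast and slow troponins other than Tnnc2, Mylpf, Atp2a1, Pvalb, Ttn, Des and members that passed a test or separated the groups. Genes named for other reasons, such as those of the marker lists, were picked after their values were seen. The alternatives were a pseudocount of 0.1, no filter, median ratio scaling, quantile normalization, all 17 libraries in 1 model, a block for the replicate number, and omission of each library. Same-numbered libraries of different groups did not deviate together over 16416 genes (correlations of -0.221 to 0.0832), so numbers were not taken as pairs. Promoters are from RefSeq, and 30 of 34 member positions were identical to GENCODE M21. Among the 33 members other than Tnnc2, which had libraries at 0, counting error from the fragments came closest to the SD between mice for Tnni1, Tnnt1, Myl3, Myl2 and Tnnc1.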

Additional observations from a re-analysis of the deposited data

Results flagged for a closer look

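In 68 groups of 7 values (33 members and the summed level, in NE and in brimonidine libraries), 13 had a value that stood off from the other 6 by more than Dixon's 95% critical share of the range of the group. Chance flags about 1 in 20 groups only if values are normally distributed, which was not tested. The values were FPKM without a log, a scale on which high values stand off more than on the log2 scale of the tests. All 13 were the high value of NE 4, and no value of the brimonidine group was among them. The slow fibre genes Tnni1, Myl3, Myl2 and Tnnc1 stood off the most, by 0.828, 0.817, 0.811 and 0.807 of the range of the group, followed by Actn3 (0.741) and Myh7 (0.701), while the slow troponin Tnnt1 (0.579) stood off less than several fast fibre genes. NE 4 had 1.66 FPKM of Tnni1 (median of the 7 NE libraries 0.476), 4.87 FPKM of Myl3 (median 1.19), 6.65 FPKM of Myl2 (median 2.15), 9.77 FPKM of Tnnc1 (median 2.44), 3.57 FPKM of Myh7 (median 1.03) and 12 FPKM of Tnnt1 (median 6.51). The fast fibre genes and the shared genes of the sarcomere that stood off were Actn3 at 31.2 FPKM (median 15.8), Ckm at 48.3 (median 28.4), Mybpc2 at 11.4 (median 6.41), Tnnt3 at 189 (median 114), Tnni2 at 81.3 (median 50), Tcap at 72.8 (median 36.6) and Myh4 at 68.9 (median 29.7). These 13 are not independent, since the members follow each other from library to library, and the summed level itself (1607 FPKM in NE 4) did not stand off. What was taken with the cochlea in NE 4 was not tested.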

How the results depend on the processing

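In the comparisons with control the direction of the members held in the settings run, except for Mybpc1 and Myl1 as given below, and the calls did not. Leaving out each library in turn, the members called ran from 0 to 15 in NE against control (5 with all libraries) and from 1 to 7 in brimonidine against control (2). The calls over all genes in either direction ran from 368 to 934 and from 468 to 1080, and those higher from 22 to 144 and from 12 to 180. Without the filter on low values 1 member was called higher in each of these comparisons, beside 914 and 909 of all genes (918 and 913 with the filter). Of these calls over all genes, 17 and 9 were higher (43 and 27 with the filter). With median ratio scaling 4 were called higher in brimonidine against control, beside 830 of all genes, of which 47 were higher. The replicate number as a block, which in comparisons with control rests on the numbers that the controls share, left 0 genes and 0 members called in NE against control, and 236 genes and 0 members in brimonidine against control. The median of the members under the block was 0.61 against 0.69 without it, and 0.36 against 0.56, with the cause of the lost calls not tested, and the numbers did not pair the libraries. With libraries omitted, Mybpc1 ran from -0.0413 (without control 1) to 0.59 in NE against control, and Myl1 from -0.0806 (without control 1) through -0.00665 (without control 3) to 0.74 in brimonidine against control. The summed level of the highest over the lowest library was 3.57 with median ratio scaling, 3.01 without Acta1 and Ckm and, as an alternative chosen after seeing the data, 4.18 without Pvalb. Quantile normalization moved the median of all genes from -0.04 to 0.06 in NE against control and from -0.03 to 0.07 in brimonidine against control, while the median of the members went from 0.69 to 0.75 and from 0.56 to 0.62. Between brimonidine and NE no setting called a gene. Tnnc2, with 9 fragments in all, allows no comparison at this depth.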

Other observations

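Some genes used by muscle but outside the 34 varied in other ways. They were picked after their values were seen. Pfkm, the muscle form of phosphofructokinase, which the brain also uses, was at 36.7, 91.9 and 31.4 FPKM in controls 1, 2 and 3, 21.4 to 29.3 FPKM in NE and 17.8 to 35.8 FPKM in brimonidine libraries. Casq2, the calcium store protein of slow and heart muscle, was at 1.77, 4.72 and 1.02 FPKM in the controls, 0.501 to 1.26 FPKM in NE and 0.521 to 1.93 FPKM in brimonidine libraries. Actc1 was at 7.12 FPKM in control 2 and 4.37 FPKM in NE 1 and at or under 2.19 FPKM in the other libraries, and Myh8, the perinatal heavy chain, was at 0.519 FPKM in brimonidine 1 and at or under 0.0818 FPKM elsewhere. Ankrd2 was at 1.19, 1.08 and 0.961 FPKM in the controls, 1.61 to 5.12 FPKM in NE and 2.05 to 6.34 FPKM in brimonidine libraries, so that both exposed groups lay above all 3 controls, as for Tnnt1 and Myl3.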
